A study of Mus musculus with 6 samples.

Results

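The ErbB receptors and the growth factors of the EGF type that bind them were examined in cultured mouse pancreatic carcinoma cells with and without decitabine. The members were every probe that the array lists under EGFR, ERBB2, ERBB3, AREG, EREG, HBEGF, TGFA, BTC, EGF or ERRFI1, which came to 10 genes and 15 of the 45281 probes. Of these 15 probes, 10 were detected on at least 3 of the 6 arrays, 2 on fewer arrays and 3 on none, and 8 of the 10 genes could be tested. The cells were malignant epithelial cells from the pancreatic tumor of a KPC-Brca1 mouse, kept as a short-term explant, and the labels do not spell out the alleles behind that name. Both groups came from this 1 culture: 3 plates were left untreated and 3 plates received 0.5 µM decitabine (5-aza-dC, here DAC) for 48 h. DAC is an analog of deoxycytidine that lowers DNA methylation. RNA was measured on Illumina bead arrays. Because replicates are plates of 1 explant, the p-values measure the spread between plates, which may be technical. In such bulk samples, fewer cells that express a gene and less RNA per cell cannot be told apart.

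The ErbB family is a set of receptor tyrosine kinases that pair up on the cell surface when a ligand binds. Egfr binds Egf, Tgfa, Areg, Ereg, Btc and Hbegf, which are made as membrane-bound precursors and cut free by proteases, Adam17 among them. Erbb2 has no known ligand and works as a partner of the other receptors, Erbb3 has a weak kinase and binds neuregulins, and Errfi1 (also called Mig6) is a cytoplasmic protein that binds and blocks the Egfr kinase. In the mouse pancreas, Egfr contributes to the early steps of tumor formation.

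Values are given as log2 signal after background correction and quantile normalization, and a difference is DAC minus untreated ± standard error (SE). A gene was called at an adjusted p under 0.05 in limma over all 14154 genes tested. Signals of different probes are not on a common scale, so each probe was compared only with itself across arrays. An array detected 43.9% to 47.4% of its probes, and arrays of a group correlated at r = 0.981 to 0.998. Untreated replicate 1 stood apart from the other untreated arrays (r = 0.981 and 0.982) and had the highest mean intensity, 460.0 against 313.2 to 360.7 on the other 5 arrays. Untreated replicates 2 and 3 lay close together, with a median squared difference of 0.901 times the bead variance against 0.455 for bead noise alone, and were kept as separate samples. Of 10 epithelial markers, Krt8, Krt18, Krt19, Krt7, Cdh1, Muc1, Cldn4, Cldn7 and Elf3 were detected on all 6 arrays and Epcam on none.

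Expression of the receptor Egfr and of the ligand Areg rose with DAC. Egfr rose 1.68-fold and Areg 1.63-fold. No member was called lower. The other 6 tested members were Erbb2, Hbegf, Tgfa, Btc, Egf and the inhibitor Errfi1, and none of them passed the test. The count was thus 2 of 8 higher, where 10.1% of all genes were called higher, and 0 of 8 lower, where 7.21% of all genes were called lower. At an unadjusted p under 0.05 in limma, 2 members were higher and 1, Errfi1, was lower. The share of all genes at this unadjusted threshold is not given, here or for the lists below. Such counts are thus not set against a background. In 5 of the 8 members the groups did not overlap, which held for 36.2% of all genes. The median difference of the 8 members was -0.02, and that of all genes was -0.02, with quartiles of -0.23 and 0.21.

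**Figure D1:**
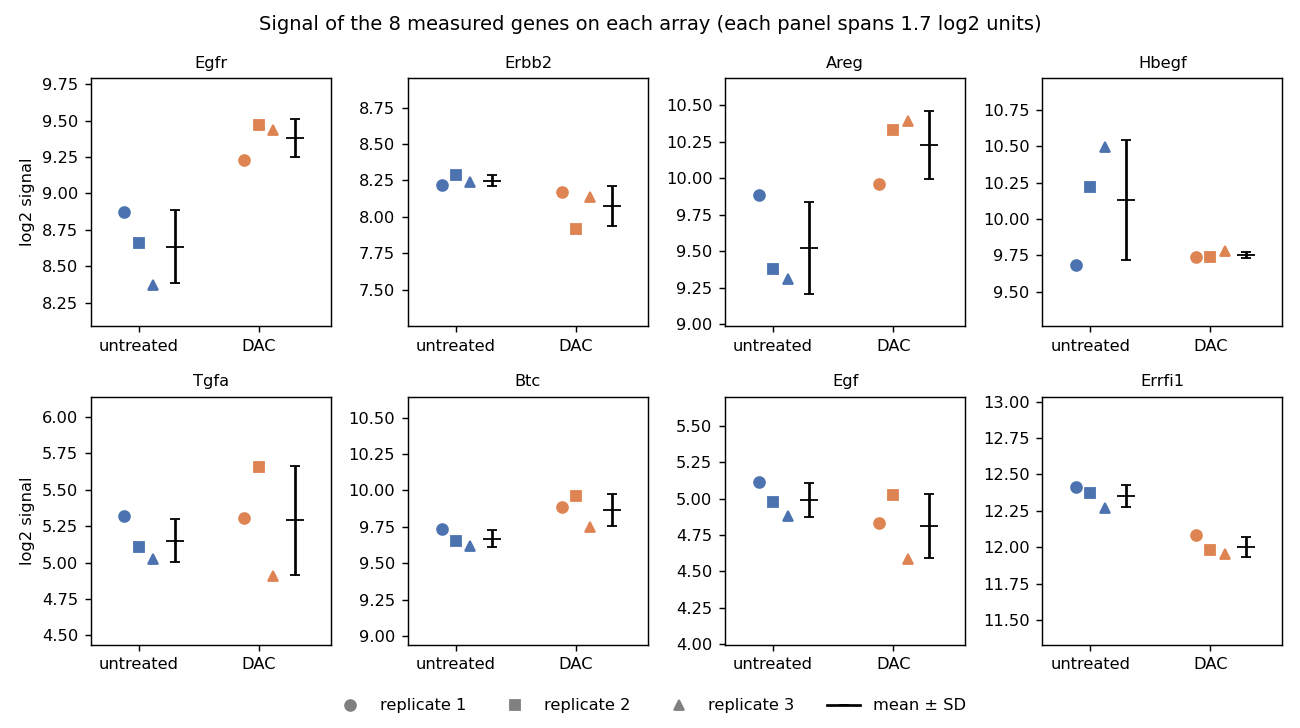
Log2 signal of the 8 tested members on each of the 6 arrays, with symbols for replicates and bars for the mean ± SD (n = 3 per group); each panel spans the same log2 range. The DAC points lie above the untreated ones for Egfr, Areg and Btc, below them for Erbb2 and Errfi1, and overlap them for Hbegf, Tgfa and Egf.

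Egfr was read by several probes. The probe with the highest signal read 8.87, 8.66 and 8.37 on the untreated arrays and 9.23, 9.47 and 9.44 on the DAC arrays. The groups were apart, every DAC array being higher, with a gap of 0.36 between the nearest arrays. The mean went from 8.63 ± 0.25 to 9.38 ± 0.13 (SD, n = 3), a difference of 0.74 ± 0.15 (95% interval 0.39 to 1.09, limma adjusted p = 0.0130). A larger rise was measured for 6.01% of all genes. Before normalization the groups overlapped, since this probe read 641.2 intensity units on untreated replicate 1, 403.7 and 353.6 on the other untreated arrays, and 592.8 to 739.7 on the DAC arrays.

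The other Egfr probes gave differences in the same direction. Probe 1770292 read 5.99, 5.93 and 6.00 on the untreated arrays and 6.53, 6.62 and 6.64 on the DAC arrays. It rose by 0.62 ± 0.11 (adjusted p = 0.00811 in limma over all 21415 detected probes, of which 15% were called), a call lost without untreated replicate 2 (adjusted p = 0.0525) and with median scaling (0.0591). Probe 4540382 read 6.50, 6.72 and 6.67 untreated and 6.91, 7.16 and 7.08 with DAC. Its groups did not overlap, but the difference of 0.42 ± 0.12 missed the threshold (adjusted p = 0.0587 in limma). A further probe, listed on the array as 9030024J15RIK, a synonym of Egfr in RefSeq and outside the rule for members, read 8.22, 7.92 and 7.78 untreated and 8.34, 8.53 and 8.65 with DAC (difference 0.53 ± 0.15, limma adjusted p = 0.0530). The last Egfr probe, 5090372, was detected on 2 DAC arrays and on no untreated array, and was not tested. Thus all 4 tested Egfr probes had groups without overlap after normalization, and 2 of them were called. These probes read the same 6 RNA samples. Before normalization, untreated replicate 1 overlapped the DAC arrays for probe 4540382 too, at 139.3 against 137.4 on DAC replicate 3. The same held for 9030024J15RIK, at 411.4 against 354.1 to 398.2 on the DAC arrays. The share of all probes without overlap is not given.

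**Figure D2:**
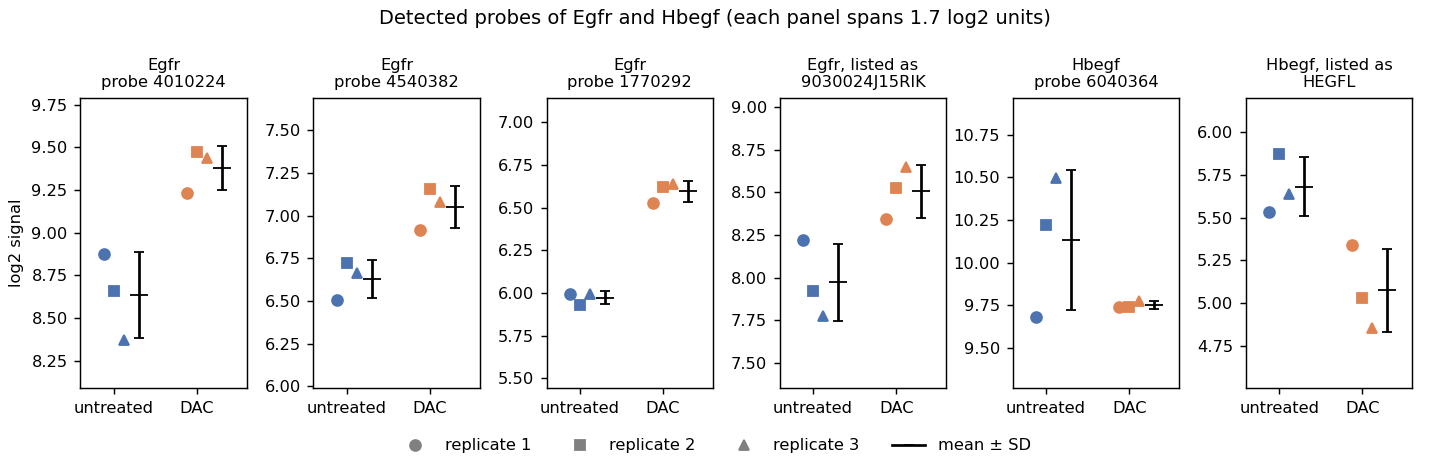
Log2 signal of the tested Egfr and Hbegf probes on each array, including the probes listed under the older names 9030024J15RIK and HEGFL, with the mean ± SD (n = 3 per group). The DAC points lie above the untreated ones in all 4 Egfr panels, below them for HEGFL, and beside untreated replicate 1 for Hbegf probe 6040364.

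The Egfr call depended on single arrays and on the scaling. Without DAC replicate 2 the difference was 0.70 (limma adjusted p = 0.0668), without DAC replicate 3 it was 0.72 (adjusted p = 0.0551), and with each array scaled to its median it was 0.59 (adjusted p = 0.0864). With median scaling the median of all genes was -0.12 instead of -0.02, and the SE of Egfr was 0.21 instead of 0.15. Relative to the median of all genes, Egfr differed by 0.715 with median scaling, against 0.77 in the reported fit. This relative difference was not tested.

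Erbb2, the receptor without a ligand of its own, read 8.22, 8.29 and 8.24 on the untreated arrays and 8.17, 7.91 and 8.14 on the DAC arrays. The DAC values lay below the untreated ones by a gap of only 0.045. The difference was -0.17 ± 0.12 (95% interval -0.44 to 0.09, limma adjusted p = 0.344), with an interval that spans 0. Erbb3, the partner that binds neuregulins, was not detected on any array. Its intensities were 57.3, 52.7 and 57.3 untreated and 54.2, 49.6 and 46.7 with DAC, with detection p-values from 0.0598 to 0.556, and no fold is given.

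Areg encodes amphiregulin, an Egfr ligand that epithelial cells release. It read 9.89, 9.38 and 9.31 on the untreated arrays and 9.96, 10.33 and 10.39 on the DAC arrays. The groups did not overlap, but untreated replicate 1 and DAC replicate 1 were only 0.077 apart. The mean went from 9.52 ± 0.32 to 10.23 ± 0.23 (SD, n = 3), a difference of 0.71 ± 0.19 (95% interval 0.28 to 1.14, limma adjusted p = 0.0359). A larger rise was measured for 6.6% of all genes. In raw intensity untreated replicate 1, at 1296.5, lay within the DAC range of 1038.9 to 1328.5, while untreated replicates 2 and 3 read 638.1 and 634.6.

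The Areg call also depended on single arrays and on the scaling. Among the untreated arrays it was lost when replicate 2 (0.63, limma adjusted p = 0.124) or replicate 3 (0.60, 0.121) was left out, and among the DAC arrays when replicate 2 (0.66, 0.134) or replicate 3 (0.63, 0.127) was. It was also lost with median scaling (0.56, limma adjusted p = 0.162), while without untreated replicate 1 the difference was 0.89 (adjusted p = 0.00273).

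**Figure D3:**
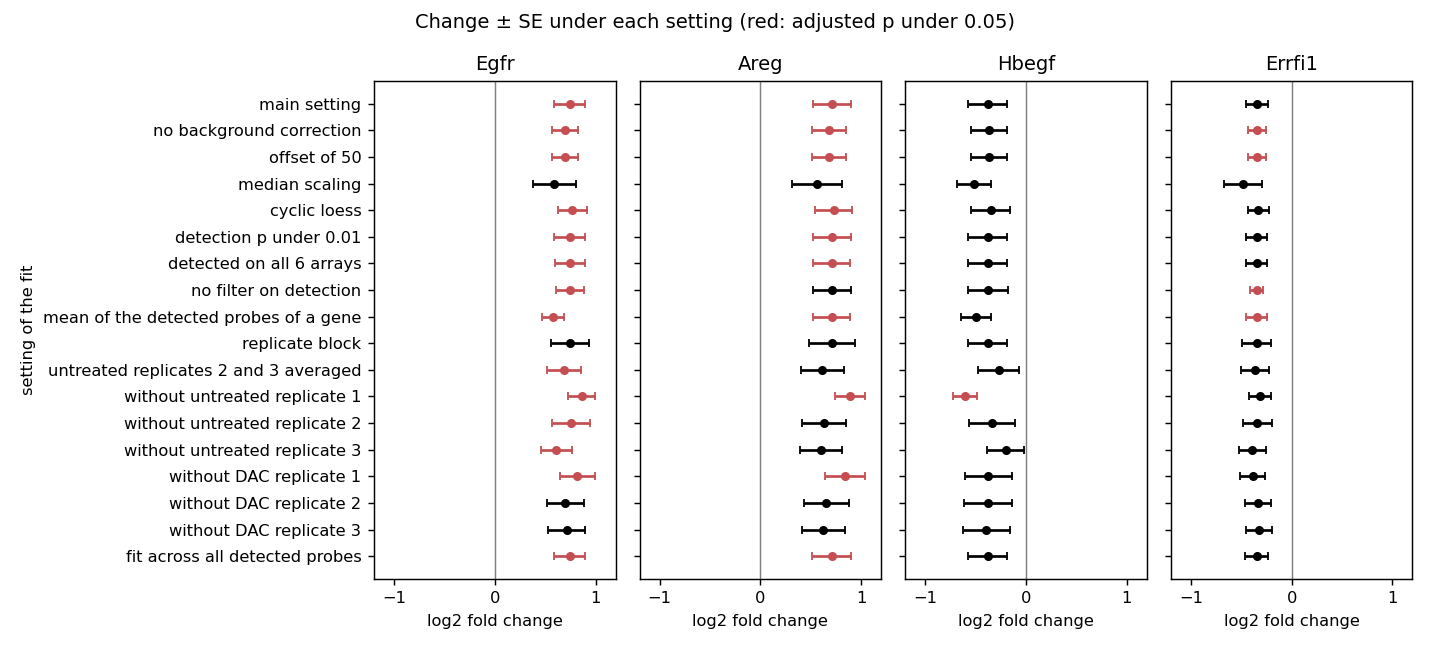
Difference, DAC minus untreated, ± SE on the log2 scale for Egfr, Areg, Hbegf and Errfi1 under the reported setting and each alternative; red marks an adjusted p under 0.05 in limma. Egfr and Areg stay above 0 and Hbegf and Errfi1 below 0 in every row drawn, while the calls change between settings. For Egfr, Areg and Errfi1, whose groups do not overlap, leaving out any array could not change the sign.

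Btc, betacellulin, a ligand of Egfr and of Erbb4, read 9.73, 9.65 and 9.62 untreated and 9.89, 9.96 and 9.75 with DAC. The DAC values lay above the untreated ones by a gap of 0.012. The difference of 0.20 ± 0.11 was not called (95% interval -0.06 to 0.45, limma adjusted p = 0.272). Areg and Btc lie near each other on mouse chromosome 5, with Ereg, epiregulin, and Epgn, epigen, in the same group of ligand genes. Both Ereg probes were undetected on all arrays, with intensities of 44.6 to 58.6 over both and detection p-values of 0.0716 to 0.822. Epgn, an Egfr ligand outside the rule, differed by 0.32 ± 0.14 and was not called (limma adjusted p = 0.154).

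Hbegf, heparin-binding EGF-like growth factor, read 9.68, 10.22 and 10.49 on the untreated arrays and 9.74, 9.74 and 9.78 on the DAC arrays. On this scale the groups overlapped because untreated replicate 1 was the lowest of all 6 arrays. In raw intensity they did not overlap, at 1132.8, 1103.6 and 1360.1 untreated and 893.6, 883.6 and 748.5 with DAC. The difference was -0.38 ± 0.19 (95% interval -0.83 to 0.06, limma adjusted p = 0.219). Without untreated replicate 1 it was -0.61 ± 0.12 and called (adjusted p = 0.00616), and without untreated replicate 3 it was -0.20 (adjusted p = 0.554). A probe listed as HEGFL, a synonym of Hbegf in RefSeq and outside the rule, read 5.54, 5.87 and 5.64 untreated and 5.34, 5.03 and 4.85 with DAC, without overlap. It fell by 0.61 ± 0.16 (adjusted p = 0.0407 in limma over probes), and this call was lost in 10 of 14 alternatives, with adjusted p-values from 0.0185 to 0.155 over all of them. This probe was near the limit of detection. Its difference was -0.34 with no background correction and -0.33 with an offset of 50. With both probes averaged, Hbegf differed by -0.50 (limma adjusted p = 0.0531).

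Tgfa and Egf were near the limit of detection. Tgfa, transforming growth factor alpha, read 5.32, 5.11 and 5.03 untreated and 5.30, 5.66 and 4.91 with DAC, with overlapping groups and a difference of 0.14 ± 0.19 (limma adjusted p = 0.662). Egf, the founding ligand of the family, read 5.11, 4.97 and 4.88 untreated and 4.83, 5.02 and 4.58 with DAC, where 2 of the 3 arrays detected it. Its groups overlapped too, with a difference of -0.18 ± 0.14 (limma adjusted p = 0.436). A second Egf probe was detected on 1 DAC array only and was not tested.

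Errfi1, the inhibitor of the Egfr kinase, read 12.42, 12.37 and 12.27 on the untreated arrays and 12.08, 11.98 and 11.95 on the DAC arrays. All DAC values lay below all untreated values, with a gap of 0.19. The mean was 12.35 ± 0.08 untreated and 12.00 ± 0.07 with DAC (SD, n = 3), a difference of -0.35 ± 0.11 (95% interval -0.60 to -0.10) that missed the adjusted threshold (limma adjusted p = 0.0621). Errfi1 was called in 4 of 17 alternatives. These were no background correction (limma adjusted p = 0.0321), an offset of 50 (0.0297), no filter on detection (0.0288) and probes averaged by gene (0.048). The other 13 did not call it, with a limma adjusted p of up to 0.230. With each replicate left out, the limma adjusted p ran from 0.0558 to 0.202.

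**Figure D4:**
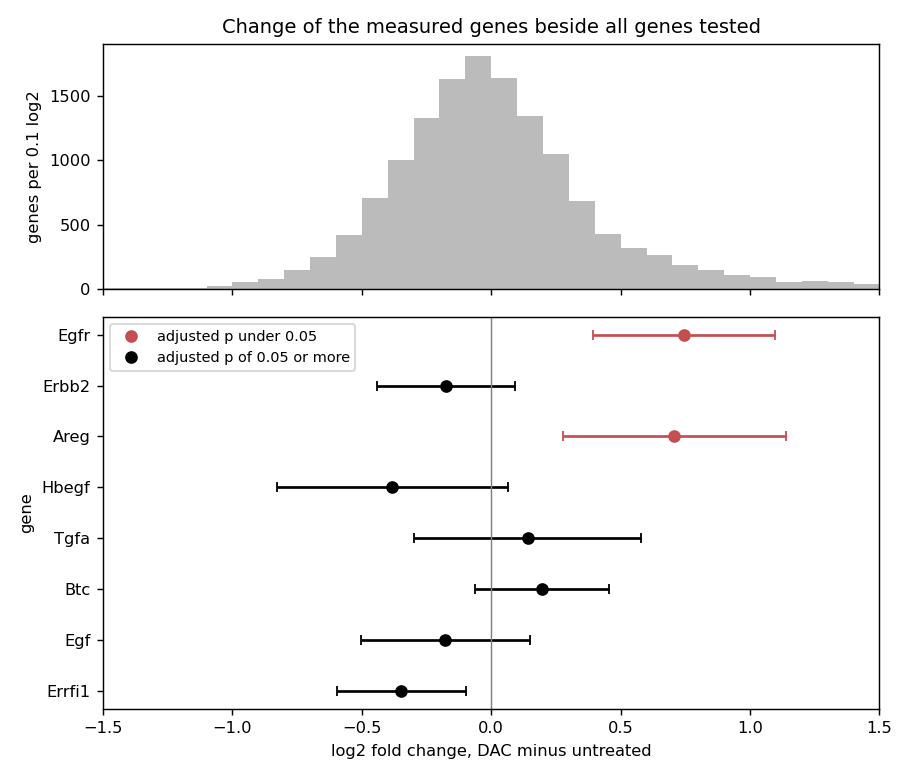
Upper panel, number of genes in each 0.1-wide bin of the log2 difference, DAC minus untreated, for the 14154 genes tested; lower panel, the difference of each tested member with its 95% interval, red where the adjusted p was under 0.05. Egfr at 0.74 and Areg at 0.71 lie in the upper tail, and the intervals of Erbb2, Hbegf, Tgfa, Btc and Egf cross 0.

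The bases just before the start of Egfr, Areg, Btc and Erbb2 are shown, since DAC lowers DNA methylation. These genes differ in how many CG pairs they hold there. Each sequence covers the 250 bases upstream of the RefSeq start on GRCm38.p6, 5′ to 3′ on the strand of the gene, with every CG in capitals. The windows are chr11:16751953-16752202 (+) for Egfr, chr5:91139349-91139598 (+) for Areg, chr5:91402995-91403244 (-) for Btc and chr11:98412234-98412483 (+) for Erbb2.
Egfr: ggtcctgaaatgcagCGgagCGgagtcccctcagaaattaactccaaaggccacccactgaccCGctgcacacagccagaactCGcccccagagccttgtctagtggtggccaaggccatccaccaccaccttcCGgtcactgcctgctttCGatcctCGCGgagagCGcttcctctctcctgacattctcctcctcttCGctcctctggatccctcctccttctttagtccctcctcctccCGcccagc
Areg: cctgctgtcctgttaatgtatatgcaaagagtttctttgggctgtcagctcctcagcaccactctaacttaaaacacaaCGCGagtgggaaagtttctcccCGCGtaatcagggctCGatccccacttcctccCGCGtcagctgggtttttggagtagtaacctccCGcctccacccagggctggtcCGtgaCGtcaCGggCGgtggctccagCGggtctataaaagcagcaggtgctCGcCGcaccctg
Btc: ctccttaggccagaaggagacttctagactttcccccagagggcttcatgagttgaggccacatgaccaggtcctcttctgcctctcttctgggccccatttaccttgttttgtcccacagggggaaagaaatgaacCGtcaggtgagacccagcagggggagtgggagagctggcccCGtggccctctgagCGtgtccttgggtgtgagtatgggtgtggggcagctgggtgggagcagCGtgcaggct
Erbb2: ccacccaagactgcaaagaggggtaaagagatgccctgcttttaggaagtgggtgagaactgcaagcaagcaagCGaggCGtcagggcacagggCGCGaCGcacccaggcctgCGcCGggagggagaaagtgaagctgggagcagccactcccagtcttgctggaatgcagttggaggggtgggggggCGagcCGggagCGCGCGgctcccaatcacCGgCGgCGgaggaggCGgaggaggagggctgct

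The Egfr window holds 11 CG pairs, the Areg window 15, the Btc window 4 and the Erbb2 window 16. Among all 32851 promoters in the RefSeq table the median was 6, 92.1% held at least 1, and the quartiles were 2 and 16. At least as many as in Egfr were found in 35.6% of promoters, as in Areg in 27.3%, as in Btc in 62.2% and as in Erbb2 in 25.4%. Tgfa held 19, the windows of the 2 listed Egf starts held 15 and 0, and those of the 2 Errfi1 starts held 1 and 30. Methylation of these windows was not measured.

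The rest of the pathway was described by 5 lists of genes, beside shares of 10.1% of all genes called higher and 7.21% called lower. Of the other ErbB receptor and ligands, 3 of 6 were tested and none was called in limma, with 2 higher at an unadjusted p under 0.05. Nrg1, a neuregulin that binds Erbb3 and Erbb4, differed by 0.35 ± 0.11 (limma adjusted p = 0.0635) and Nrg4 by -0.40 ± 0.19 (0.191), while the receptor Erbb4 was not detected. Without untreated replicate 1, 2 of the 3 were called higher. That setting called 2517 of all 14154 genes higher and 2162 lower. Of 13 genes for ligand shedding, 11 were tested and 0 were called in limma, with 1 higher at an unadjusted p under 0.05 and differences from -0.22 to 0.51. The proteases that release these ligands were among them, Adam17 at -0.09 ± 0.16 and Adam10 at -0.14 ± 0.31. Without untreated replicate 1, 2 genes of the shedding list were called higher, in the setting that called 2517 of all 14154 genes higher.

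Among 17 tested genes of receptor turnover and inhibition, 1 was called higher (5.88%, beside 10.1% of all genes) and 2 lower (11.8%, beside 7.21%), around a median of -0.03. Shares from so few genes are near those of all genes. Lrig1, a membrane protein that promotes the loss of ErbB receptors, read 9.99, 10.11 and 9.99 untreated and 9.38, 9.13 and 9.46 with DAC. It fell by 0.71 ± 0.13 (limma adjusted p = 0.00688). Socs4, a suppressor of cytokine signalling that targets Egfr, read 7.01, 7.14 and 7.07 untreated and 7.76, 7.65 and 7.77 with DAC. It rose by 0.65 ± 0.11 (limma adjusted p = 0.00487), with 1 of its 2 probes called, and missed the threshold with median scaling (0.52, adjusted p = 0.0514) and with its probes averaged (0.38, 0.0635). Usp8, a deubiquitinase of endosomes, fell by 0.75 ± 0.20 (limma adjusted p = 0.0379), with 1 of its 2 probes called. Its call was lost with its probes averaged (0.0588), without untreated replicate 2 or 3 and without DAC replicate 2 or 3. Without untreated replicate 1, 3 genes of the list were called higher and 2 lower, against 2517 and 2162 of all 14154 genes.

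Among 34 tested adaptors and kinases downstream, 2 were called in each direction, 5.88% each, below the 10.1% of all genes called higher and the 7.21% called lower, around a median of -0.05. At an unadjusted p under 0.05, 4 were higher and 4 lower. Pik3r3, a regulatory subunit of PI3-kinase, rose by 0.58 ± 0.13 (limma adjusted p = 0.0189) and Hras, a Ras GTPase, by 0.41 ± 0.12 (0.0448). Braf, a Raf kinase, fell by 0.44 ± 0.11 (limma adjusted p = 0.0275) and Jak2, a cytokine-receptor kinase, by 0.41 ± 0.12 (0.0428). Neither Hras probe was called in the fit over probes, which called 2 of 2 Pik3r3, 1 of 3 Braf and 1 of 2 Jak2 probes. With probes averaged by gene, Hras (limma adjusted p = 0.114) and Braf (0.0610) were not called. Leaving out replicate 2 or 3 of either group, untreated or DAC, left none of the 4 called. Without DAC replicate 1 the list had 1 gene called higher and 0 lower. Without untreated replicate 1 it had 4 called higher and 3 lower, against 2517 and 2162 of all 14154 genes.

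Of 21 tested genes of ERK feedback and early response, 17 were not called, 4 fell (19%, beside 7.21% of all genes) and 0 rose (beside 10.1%) in limma. At an unadjusted p under 0.05, 6 were lower and 1 higher, and the list's median was -0.17, beside -0.02 for all genes. Fos, an early-response transcription factor, read 10.67, 10.47 and 10.44 untreated and 9.56, 9.63 and 9.68 with DAC, and fell by 0.91 ± 0.12 (limma adjusted p = 0.00147). Etv5, an ETS factor, fell by 0.73 ± 0.14 (limma adjusted p = 0.00912), Egr3, a zinc-finger factor, by 0.70 ± 0.18 (0.0347), and Ier3, an early-response protein, by 0.43 ± 0.11 (0.0288). The phosphatase Dusp6 differed by -0.32 ± 0.14 and was not called (limma adjusted p = 0.160). The count of 4 was 2 when untreated replicate 2 or 3 or DAC replicate 3 was left out, and 1 when DAC replicate 2 was. Without untreated replicate 1 the list had 6 called lower and 1 higher, against 2162 and 2517 of all 14154 genes. Fos was called in all 16 alternatives. Etv5 was called in 14 of them, Ier3 in 8, and Egr3, with 1 of its 2 probes called, in 7. With the replicate number as a block, 1 gene of the list was called lower, against 177 of all 14154 genes.

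**Figure D5:**
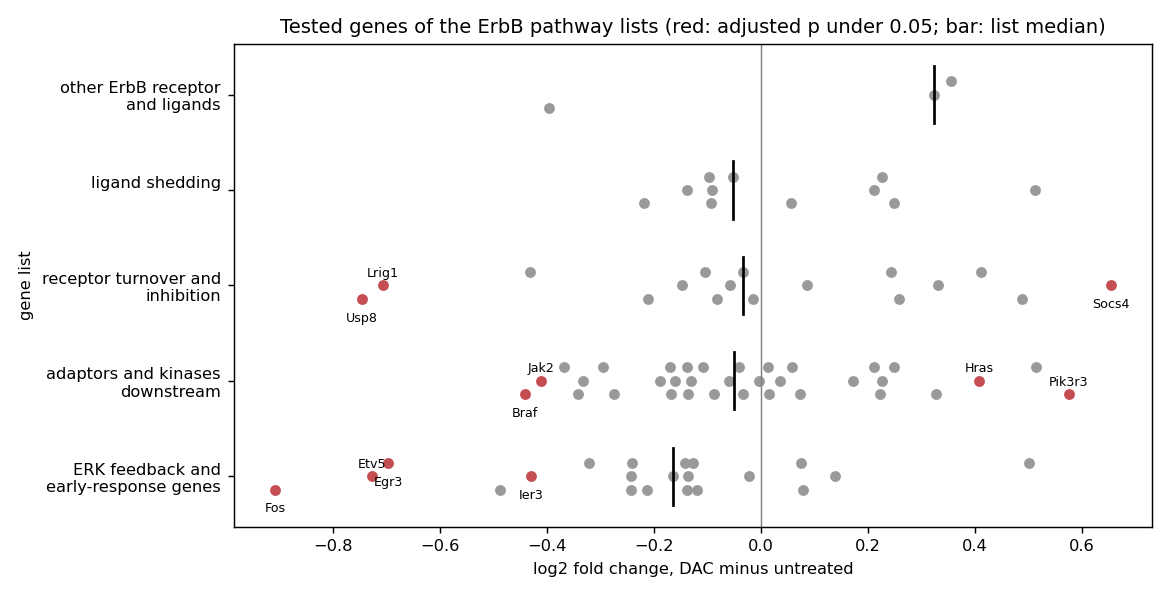
Log2 difference, DAC minus untreated, of each tested gene in 5 pathway lists, with a bar at the list median, called genes in red and named. The list medians run from -0.17 for the ERK feedback and early-response genes to 0.32 for the other ErbB receptor and ligands, of which only 3 were tested.

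Markers of other cell types moved as well, and their part in the results above was not tested. Of all genes, 10.1% were called higher and 7.21% lower. The marker lists hold too few tested genes for a firm comparison with these shares. Of 10 fibroblast and stromal markers 3 were tested and 2 rose, Col1a1 by 2.22 ± 0.24 and Acta2 by 2.23 ± 0.23 (limma adjusted p = 0.000686 and 0.000470), while Col1a2, Col3a1, Pdgfrb, Dcn, Lum and Thy1 were undetected on all arrays. The summed intensity of that list was 1431 to 1568.5 untreated and 2356.5 to 2992.7 with DAC. Of 11 macrophage and leukocyte markers 4 were tested, 2 rose and 1 fell, with Laptm5 at least 3.93-fold higher after this background correction (limma adjusted p = 3.17e-05), Fcgr3 higher by 1.24 ± 0.13 (0.000625), and Cd14 lower, at -0.60 ± 0.11 (0.00651). The fitted Laptm5 difference of 2.45 was 1.63 with no background correction and 1.42 with an offset of 50. Ptprc, Adgre1, Itgam, Lyz2 and Cd3e were undetected, and the summed intensity was 2312.4 to 3123 untreated and 2039 to 2351.3 with DAC. Of 8 endothelial markers 2 were tested and Esam rose by 1.14 ± 0.14 (limma adjusted p = 0.00109), with Pecam1, Cdh5, Kdr, Tek, Vwf and Emcn undetected and summed intensities of 579.4 to 673.3 and 643.7 to 690.4. Of 10 acinar and endocrine markers, 3 were tested and 0 were called in limma, with 1 higher at an unadjusted p under 0.05 and summed intensities of 918.3 to 1260.3 and 1004.9 to 1116.8. Among the epithelial markers themselves 2 rose and 2 fell. Cldn4 was higher by 1.75 ± 0.12 (limma adjusted p = 4.45e-05) and Elf3 by 1.26 ± 0.16 (0.00140). Muc1 fell by 0.67 ± 0.11 (limma adjusted p = 0.00528) and Krt7 by 0.47 ± 0.13 (0.0448). The Krt7 call was lost in 8 of 16 alternatives, and its only tested probe was not called in the fit over probes.

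For the 7 members detected on all 6 arrays, which leaves out Egf, the gene with the most similar pattern was sought among 10082 other genes with a current symbol and the same detection, by the root mean square difference of the centred log2 values over these arrays. For Egfr it was Rab38, at 0.0383, and for Areg it was Rnls, at 0.0355. For Errfi1 it was Nck1, at 0.0228, for Hbegf Rubcn, at 0.0562, for Btc Znhit3, at 0.0234, for Erbb2 Lurap1, at 0.0170, and for Tgfa Asxl2, at 0.0935. These distances describe 6 arrays of 2 groups that share a culture.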

How the data were processed

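RNA of 3 untreated and 3 DAC-treated plates was measured. Per the file headers, the deposited table that is not normalized gives a mean bead intensity, a bead standard error, a bead number and a detection p-value for each of 45281 probes and each array. The sources used here do not give the software behind these values or the reference set of the detection p-value. Bead standard errors of the member probes were 2.67% to 7.37% of their intensity, from 24 to 62 beads, and the number of arrays limits the precision. The authors' table of processed values was not used, since no table used here links its identifiers to genes.

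Background was corrected by neqc in limma 3.58.1 (R 4.3.3), with negative controls inferred from the detection p-values and an offset of 16, followed by quantile normalization and log2. Probes needed a detection p under 0.05 on at least 3 arrays. Of 30854 array names, 16223 matched a RefSeq symbol, 5684 a synonym of 1 gene and 8947 neither. Each gene was read by its brightest detected probe, and lmFit and eBayes compared the groups without covariates, with Benjamini-Hochberg adjustment over 14154 genes, or over 21415 probes in the probe fit. Laptm5, undetected on all untreated arrays, has a bound against the lowest detected signal of each array. The fit was tested on simulated data.

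The members and lists were chosen with earlier results of these data known. Named genes are all members with every probe, up to 4 called genes per direction and list with the lowest adjusted p, the nearest gene of each member and the 2 markers per list with the lowest adjusted p. Other genes of the pathway, namely Epgn, Nrg1, Nrg4, Adam10, Adam17 and Dusp6, the markers Muc1, Krt7 and Cd14, and the probes under the older names 9030024J15RIK and HEGFL, were named after their values were seen. Alternatives changed the background correction, scaling, filter, choice of probe, replicate structure and each replicate in turn.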

Additional observations from a re-analysis of the deposited data

How the results depend on the processing

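Among the 8 tested members, 2 were called higher and 0 lower. The count of higher calls was 0 with median scaling, 1 with no filter on detection, 1 with untreated replicates 2 and 3 averaged, and 0 to 2 with each replicate left out. The count of lower calls was 1 with no background correction, with an offset of 50, with no filter and with the mean of the probes of a gene (Errfi1 each time), and 0 to 1 with each replicate left out, the 1 being Hbegf without untreated replicate 1. Over all genes 2450 were called, 1322 with those replicates averaged, and 1231 to 4679 with each replicate left out, lowest without DAC replicate 2 and highest without untreated replicate 1.

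The deviations of same-numbered arrays from their group means correlated at r = -0.612, -0.109 and -0.479. Deviations from the mean of so small a group depend on each other. These values thus cannot decide whether the replicate numbers pair the plates. With the number as a replicate block, 0 members were called higher, 0 lower, and 874 genes in all; Egfr had a limma adjusted p of 0.0736 and Areg of 0.139. Causes of these differences were not tested.

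Egfr, Areg and Btc kept a positive and Erbb2, Egf, Hbegf and Errfi1 a negative difference in all alternatives run. Tgfa ranged from -0.04 to 0.33 with each replicate left out. For Egfr, Areg, Btc, Erbb2 and Errfi1 the groups did not overlap, so leaving out any array could not change the sign. The replicate block and the changed filters on detection left the differences as they were. The kept signs are thus no separate support for a direction. Erbb3 and Ereg were below detection.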
